A study of Mus musculus with 8 samples.

Results

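The data described here are the response of the α7E260A:G lung to chronic side-stream cigarette smoke (CS), measured by RNA-Seq as the change of transcripts between CS and control libraries of the same mouse line. The 4 libraries labelled with the genotype Chrna7-E260A-IRES-tauGFP were taken from the 8 of the series, 2 exposed to CS and 2 controls, and all 22756 genes of their files were considered. The mice were adult, on a background mostly of C57BL/6, and carry a point mutation in Chrna7, the gene of the nicotinic α7 receptor, that limits the calcium signal of the receptor. The mutation was made in the α7G line, in which an IRES-tauGFP cassette behind Chrna7 reports its expression, so all groups carry this reporter, and the α7E260A:G mice lack normal α7 calcium coupling in every cell that uses the receptor. CS mice were exposed on 5 days per week for 4 months and control mice breathed room air. Each group has 1 male and 1 female library, from cells of the distal lung that were obtained after lavage and after depletion of CD45-positive cells. The number of mice in a library is not stated. With 1 library per sex, sex and library are confounded, and p-values measure the spread between these libraries only.

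CS carries oxidants, reactive aldehydes and polycyclic aromatic hydrocarbons. Electrophiles release the factor NRF2 (Nfe2l2) from KEAP1, and NRF2 then turns on glutathione and NAD(P)H-dependent enzymes, while aromatic hydrocarbons act through the aryl hydrocarbon receptor on cytochrome P450, aldehyde dehydrogenase and glucuronyl transferase genes. Alveolar macrophages (AM) take up and digest inhaled particles in lysosomes, dendritic cells and B cells present antigen on MHC class II, club cells of the airway secrete protective proteins, and alveolar type II cells (ATII) make surfactant.

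The total counts of the 4 libraries lay between 8020726 and 10944100. Levels are given as CPM, the share of a library's counts on a common scale, adjusted by TMM, a scaling that sets the bulk of genes equal between libraries, and a pair difference is the log2 ratio of CS to control within a sex, computed on CPM plus 0.5. The female control library stood apart in 371 immunoglobulin genes, which summed to 86355 CPM against 5405 to 7464 CPM in the other 3. Libraries also differed in how counts depend on the length of the coding sequence (CDS), with a slope of 0.42 on the log2 scale per doubling of length in the male control and -0.30 in the female control, against 0.20 and -0.17 in the CS libraries. The pair differences therefore change with CDS length by -0.21 in the male and 0.12 in the female pair per doubling of length, and values with this dependence removed are given where they matter. In the α7G line the change is -0.45 in the male and -0.26 in the female pair, and α7G values below are given without it removed. CD45 transcripts were still present. Ptprc, which encodes CD45, was at 225 to 426 CPM per kb of CDS in the 4 libraries, and Epcam, an epithelial surface marker, at 76.4 to 105 CPM per kb. Chrna7 (ENSMUSG00000030525.6, chromosome 7, 70243578 to 70357455 of mm9) had a count of 4 in the male control and of 0 in the other 3 libraries, where a count of 0 allows up to 3 counts, or 0.27 to 0.37 CPM without TMM scaling. The point mutation itself cannot be read from counts.

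The first question is which transcripts differed between CS and control in the same direction in both sexes. Of 7378 genes that averaged 200 counts or more over the 8 libraries, 65 (0.881%) were higher by 1.5-fold or more in both pairs and 86 (1.17%) were lower. Of the lower genes 21 encode immunoglobulins and 65 do not. Without a threshold on size, 1922 genes (26.1%) were higher and 2009 (27.2%) lower in both pairs, and 3446 pointed in opposite directions. The counts of each list below stand beside these shares, also where they are not repeated. Both CS libraries lay above both control libraries for 753 genes (10.2%) and below them for 518 (7.02%). At the threshold of 1.5-fold, the nucleolar gene Esf1 (0.60 and 0.59) was just inside and the myeloid receptor gene Gp49a (0.76 and 0.58) just outside on the higher side. On the lower side Cd4 (-0.59 and -0.90) was just inside and the immunoglobulin gene Gm16700 (-0.58 and -4.31) just outside.

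In the quasi-likelihood test of edgeR over all 8 libraries no gene passed an adjusted p of 0.05 (smallest adjusted p = 0.48). The same test gave 178 genes (2.41%) with an unadjusted p under 0.05, 82 (1.11%) higher and 96 (1.3%) lower after CS. DESeq2 on the same counts called 31 genes (0.42%), 9 (0.122%) higher and 22 (0.298%) lower, and 18 of the 22 are immunoglobulin genes. A change is therefore named below by its values in each library and pair, with the test beside it, and is called only where the tool is named.

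**Figure D1:**
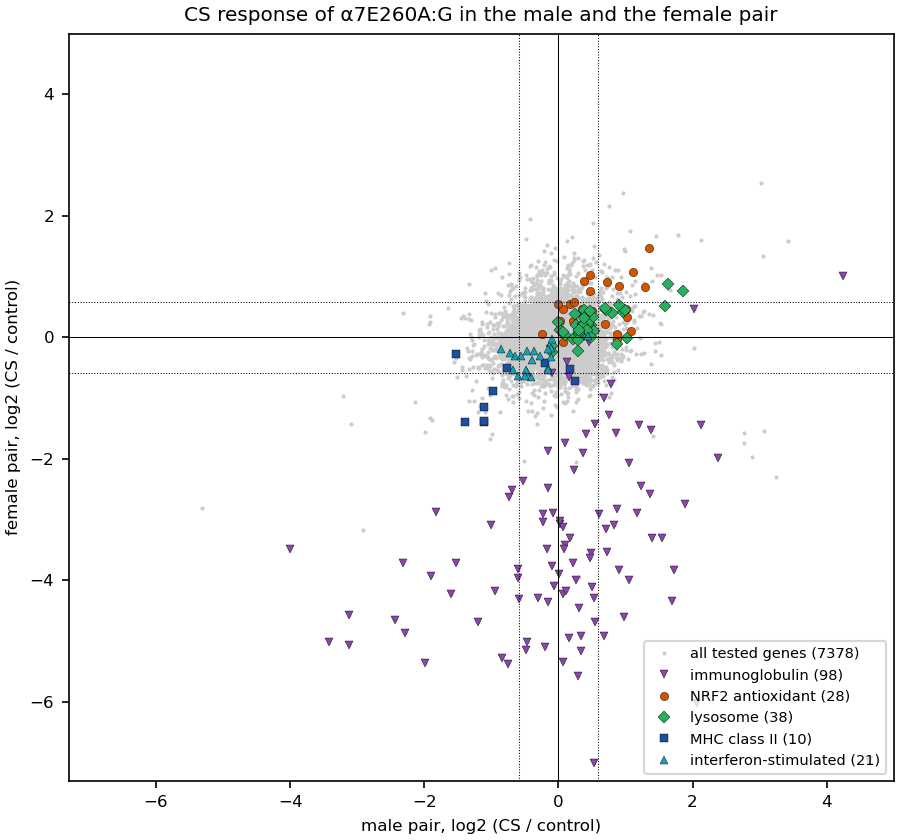
Pair differences (log2 of CS over control) of males (x axis) and females (y axis) of α7E260A:G for 7378 tested genes in grey, with 5 gene groups in color and dotted lines at 1.5-fold. NRF2 and lysosome genes lie mostly in the upper right quadrant and MHC class II and interferon-stimulated genes in the lower left, while immunoglobulin genes spread down the y axis with a median of -3.54 in the female pair.

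NRF2 target transcripts were higher after CS in both sexes. Of 28 tested genes of the antioxidant list, 24 were higher in both pairs and 0 were lower in both, beside 26.1% and 27.2% of all tested genes. Median pair differences were 0.44 (male) and 0.45 (female), beside 0.0029 and -0.0092 over all tested genes. In 5 genes (Gpx2, Cbr3, Gclm, Gstm1 and Gsta4) the difference reached 1.5-fold in both pairs, and 7 of 28 had an unadjusted edgeR p under 0.05. Over all tested genes these shares were 0.881% and 2.41%. None of the 28 was called by edgeR or DESeq2. With the dependence on CDS length removed, 26 of 28 were higher in both pairs.

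Several genes of the list make or use glutathione. Gpx2, an epithelial glutathione peroxidase, was at 17.3 and 32.7 CPM in the male and female controls and 45.1 and 91.6 CPM after CS. Both CS libraries lay above both controls, by 2.56-fold in the male and 2.78-fold in the female pair (edgeR log2 fold-change 1.45 ± 0.54 SE, adjusted p = 1.0). Gclm, the modifier subunit of the enzyme that starts glutathione synthesis, was at 37.3 and 42.4 CPM in the male and female controls and 70.2 and 77.0 CPM after CS, again without overlap (edgeR adjusted p = 1.0). The catalytic subunit Gclc was at 124 and 80.3 CPM in the male and female controls and 130.4 and 111 CPM after CS, and its groups overlapped. Gstm1, a glutathione S-transferase, went from 339 to 830.4 CPM in the male pair and from 607 to 1079 CPM in the female pair, with the male CS library above the female control. Gsta4, a transferase that clears lipid aldehydes, was at 57.6 and 113 CPM in the male and female controls and 95.1 and 212 CPM after CS, so that its male CS library stayed below the female control. Glutathione reductase, Gsr, differed less, by 0.18 and 0.55 on the log2 scale.

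Enzymes that reduce quinones and carbonyls were higher as well. Cbr3, a carbonyl reductase, was at 23.6 and 29.8 CPM in the male and female controls and 51.5 and 63.1 CPM after CS, and the groups did not overlap (edgeR adjusted p = 1.0). Thioredoxin reductase, Txnrd1, was at 128 and 85.5 CPM in the male and female controls and 167 and 164 CPM after CS. NAD(P)H quinone dehydrogenase, Nqo1, did not reach the count filter and was not tested, and its levels were 5.20 and 4.55 CPM in the male and female controls and 33.1 and 34.3 CPM after CS. Transcripts of the factor itself and of its inhibitor were higher by less, with pair differences of 0.35 and 0.48 for Nfe2l2 and 0.21 and 0.27 for Keap1. Hmox1, heme oxygenase and a well known oxidative stress gene, was at 158 and 201 CPM in the male and female controls and 165 and 190.5 CPM after CS and did not separate the groups. Short transcripts of the list, among them Prdx1 (a peroxiredoxin, 1.08 and 0.10) and ferritin heavy chain Fth1 (0.88 and -0.03), were higher in the male pair and near 0 in the female pair, which is the direction of the length dependence.

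NRF2 binds the antioxidant response element, of which the core TGACNNNGC was searched on both strands in the RefSeq promoters (250 bases before to 50 after the start, GRCm38.p6). The core was found in 8 of the 23 tested NRF2 list genes that are in the promoter table and in 12.4% of all 32851 promoters. A gene counts if any of its promoters matches, while the share over all counts each promoter. These are unlike units, here and for the elements below. Among the 5 genes that were 1.5-fold higher in both pairs, only Gclm was found to hold it. The searched promoters of Gpx2, Cbr3 and Gstm1 held no match, nor did that of Akr1b8, a gene outside the list that is described below. The promoter of Gclm, at chr3:122245307-122245606 on the plus strand, is shown with the core in capitals because this gene was higher by nearly the same factor in both sexes.
Gclm: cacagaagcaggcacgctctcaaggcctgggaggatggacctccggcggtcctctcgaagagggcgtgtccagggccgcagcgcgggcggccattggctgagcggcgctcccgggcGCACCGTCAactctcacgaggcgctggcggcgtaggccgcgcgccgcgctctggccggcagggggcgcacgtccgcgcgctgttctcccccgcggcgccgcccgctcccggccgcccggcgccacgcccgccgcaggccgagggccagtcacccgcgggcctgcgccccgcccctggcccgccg

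Of 10 genes of the aryl hydrocarbon receptor list 4 were tested, and 3 were higher in both pairs. Aldh3a1, an aldehyde dehydrogenase, was at 26.8 and 22.5 CPM in the male and female controls and 52.8 and 119 CPM after CS, higher by 1.95-fold in the male and 5.21-fold in the female pair (edgeR adjusted p = 1.0, DESeq2 adjusted p = 0.19). Ugt1a6a, a glucuronyl transferase that makes phenols soluble, was at 17.5 and 16.1 CPM in the male and female controls and 33.0 and 35.2 CPM after CS (edgeR adjusted p = 1.0). Tiparp, a further direct target, differed by 0.45 and 0.04 on the log2 scale, and Arnt, the partner of the receptor, by -0.17 and 0.24. The classical target Cyp1a1 had few counts and was not tested, with levels of 2.26 and 0 CPM in the male and female controls and 9.96 and 4.86 CPM after CS. Cyp1b1 was at 3.05 and 1.95 CPM in the male and female controls and 6.41 and 5.33 CPM after CS, also below the filter. The core GCGTG of the response element, on either strand, was found in 2 of 3 tested list genes in the promoter table and in 32.4% of all promoters. The 2 genes are Arnt and Tiparp. No match was recorded for Aldh3a1 or Ugt1a6a, which are not both in the promoter table.

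Among 21 tested cytochrome P450 and aldehyde genes, 15 were higher in both pairs and none lower in both, and 5 reached 1.5-fold. Over all tested genes these shares were 26.1%, 27.2% and 0.881%. Cyp2a5, a P450 that oxidizes nicotine and nitrosamines, was at 137 and 225 CPM in the male and female controls and 596 and 681 CPM after CS, which is 4.35-fold in the male and 3.02-fold in the female pair. Reads of Cyp2a5 may be shared with near-identical Cyp2a genes. Aldh1a1, a retinaldehyde dehydrogenase abundant in the airway, was at 1370.4 and 1526 CPM in the male and female controls and 2599 and 2540.3 CPM after CS (edgeR adjusted p = 1.0). Adh7, an alcohol dehydrogenase, went from 18.8 to 32.0 CPM in the male pair and from 14.8 to 68.4 CPM in the female pair. The club cell P450 Cyp2f2 was at 2419.5 and 2373 CPM in the male and female controls and 2209.7 and 2526 CPM after CS.

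**Figure D2:**
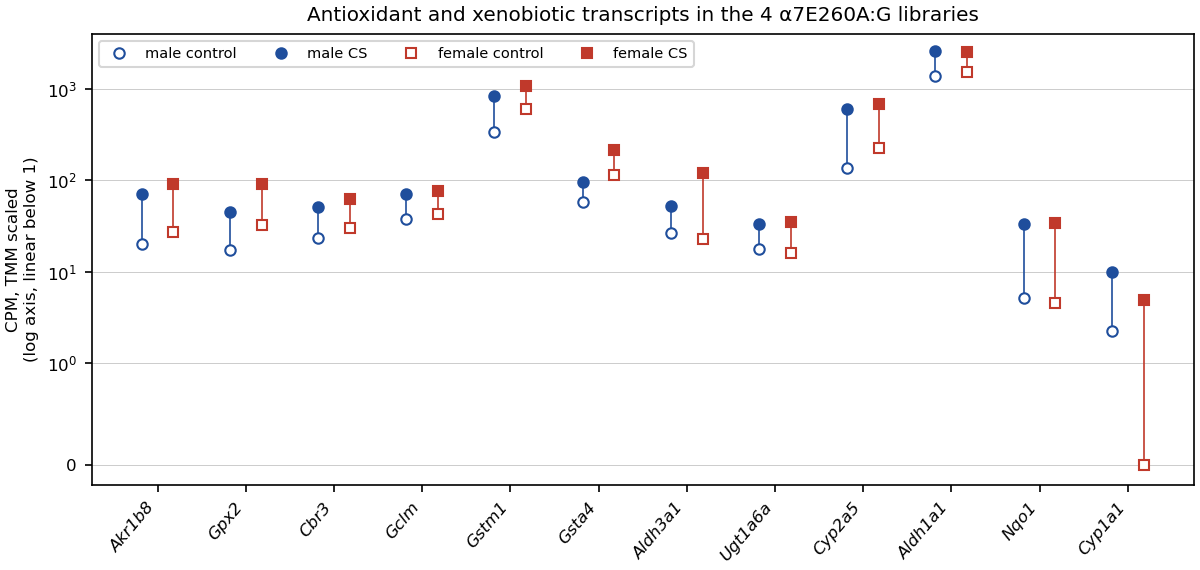
CPM (log axis, linear below 1) of 12 antioxidant and xenobiotic transcripts in the 4 α7E260A:G libraries, with control as open and CS as filled symbols, male as circles and female as squares, and a line joining each pair. Each CS symbol lies above the control of its sex, and in Gsta4 the male CS library stays below the female control.

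Of the 13 genes other than immunoglobulins that DESeq2 called, 9 were higher and 4 lower after CS. Akr1b8 (ENSMUSG00000029762.6, chromosome 6, 34304119 to 34318463 of mm9), an aldo-keto reductase that detoxifies aldehydes, was at 19.9 and 27.5 CPM in the male and female controls and 70.0 and 89.8 CPM after CS. It was higher by 3.45-fold in the male and 3.23-fold in the female pair, with no overlap of the groups (edgeR log2 fold-change 1.75 ± 0.32 SE, adjusted p = 1.0, DESeq2 adjusted p = 0.0019). Near-identical aldo-keto reductase genes may share reads with it.

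The zinc importer Slc39a2 (ENSMUSG00000072572.2, chromosome 14, 52512564 to 52516420) was at 65.8 and 76.1 CPM in the male and female controls and 172 and 169 CPM after CS (DESeq2 adjusted p = 0.0037). A second importer, Slc39a4, was at 85.7 and 87.5 CPM in the male and female controls and 164 and 156 CPM after CS and was not called. The metallothioneins Mt1 and Mt2, which bind zinc, were higher in the male and lower in the female pair, with pair differences of 1.07 and -0.23 for Mt1 and 1.28 and -0.25 for Mt2. Both are very short, and with CDS length removed the differences were 0.71 and 0.05 for Mt1 and 0.77 and 0.26 for Mt2.

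Bhlhe41, a transcriptional repressor of the clock that is also characteristic of AM, was at 24.4 and 23.7 CPM in the male and female controls and 71.7 and 48.9 CPM after CS (DESeq2 adjusted p = 0.0045). Mcoln3, an endolysosomal cation channel, was at 88.6 and 73.2 CPM in the male and female controls and 160.2 and 159 CPM after CS (DESeq2 adjusted p = 0.0095). Cxcr1, a chemokine receptor, was at 28.7 and 62.2 CPM in the male and female controls and 243 and 158 CPM after CS (DESeq2 adjusted p = 0.013). In these 3 genes both CS libraries were above both controls. Mmp3, a matrix metalloproteinase of stromal cells, was at 20.1 and 19.3 CPM in the male and female controls and 40.1 and 53.9 CPM after CS, and Serpinf1, which encodes the antiangiogenic factor PEDF, went from 51.9 to 88.3 CPM in the male pair and from 49.4 to 94.1 CPM in the female pair. B3gnt7, a glycosyltransferase, and Cpa3, a mast cell carboxypeptidase, had DESeq2 adjusted p of 0.013 and 0.042. Cpa3 was at 13.3 and 16.1 CPM in the male and female controls and 37.5 and 52.1 CPM after CS. In the α7G libraries Cpa3 was at 9.77 to 20.7 CPM, so it can have passed the count filter through these CS libraries. Its direction and call are then no independent support.

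Of the 4 lower genes, Clca3 (ENSMUSG00000028255.5, chromosome 3, 144667501 to 144695740), a secreted product of mucous cells that marks goblet cell metaplasia, was at 207 and 52.9 CPM in the male and female controls and 4.70 and 7.11 CPM after CS. Both CS libraries were far below both controls, and the controls differed from one another by more than the CS libraries did (edgeR log2 fold-change -4.46 ± 1.30 SE, adjusted p = 1.0, DESeq2 adjusted p = 0.0073). Mmp12 (ENSMUSG00000049723.8, chromosome 9, 7344381 to 7369499), the macrophage elastase, was at 59.6 and 117 CPM in the male and female controls and 7.44 and 12.6 CPM after CS, lower by 7.56-fold in the male and 9.01-fold in the female pair (DESeq2 adjusted p = 0.0095). In the α7G libraries Mmp12 was at 1.29 to 22.3 CPM, so it can have passed the count filter through the α7E260A:G controls. Its direction and call are then no independent support. Itgae, the integrin chain CD103 of mucosal T cells and a dendritic cell subset, was at 57.6 and 41.9 CPM in the male and female controls and 22.6 and 19.9 CPM after CS, and the serine protease inhibitor gene Serpina3g was at 26.2 and 47.5 CPM in the male and female controls and 12.9 and 15.4 CPM after CS. Serpina3g belongs to a family of close copies that may share reads. B3gnt7 and Serpina3g lie past the 20 calls of lowest adjusted p and were named after their values were seen. Cpa3 lies past them as well but is a member of the list for mast cells, basophils and eosinophils.

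**Figure D3:**
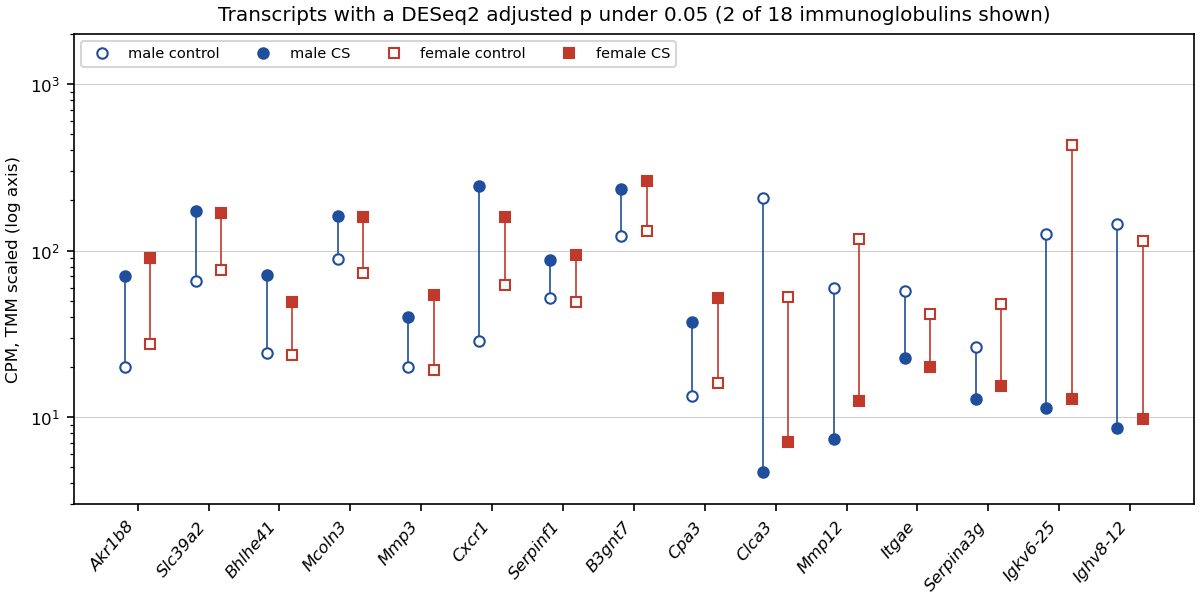
CPM (log axis) in the 4 α7E260A:G libraries of the 13 transcripts other than immunoglobulins, and 2 of 18 immunoglobulin transcripts, with a DESeq2 adjusted p under 0.05. Open symbols are controls, filled symbols are CS, circles are male and squares female, and in each gene both CS symbols lie on the same side of both controls.

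Some transcripts with the highest pair differences were not called. Orm1, an acute-phase glycoprotein, was at 5.54 and 23.2 CPM in the male and female controls and 48.6 and 138 CPM after CS, and Serpina3n, an acute-phase protease inhibitor, at 102 and 45.9 CPM in the male and female controls and 215 and 156 CPM after CS. Ear6, an eosinophil-associated ribonuclease, was at 5.88 and 28.6 CPM in the male and female controls and 68.3 and 87.1 CPM after CS. All 3 separated CS from control, but their controls differed by 2-fold or more, and each has close paralogs among which reads can be split. In the α7G libraries Orm1 was at 0.615 to 29.6 CPM and Ear6 at 2.63 to 5.74 CPM. Both can have passed the count filter through the α7E260A:G CS libraries, and their direction is then no independent support. With a lower filter of counts (filterByExpr, 14140 genes), edgeR called 1 gene, the predicted gene Gm9000 (adjusted p = 0.027), at 0.791 and 1.08 CPM in the male and female controls and 56.2 and 33.1 CPM after CS. It was named after its values were seen.

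Lysosomal transcripts were higher in both pairs for 30 of 38 tested genes and lower for 2, beside 26.1% and 27.2% of all tested genes. The medians were 0.40 in the male and 0.20 in the female pair. None was called, and 3 had an unadjusted edgeR p under 0.05, beside 2.41% of all tested genes. Gpnmb, a glycoprotein of lipid-laden macrophages, went from 446 to 1386 CPM in the male pair and from 665 to 1222 CPM in the female pair (edgeR adjusted p = 1.0, DESeq2 adjusted p = 0.065). Mcoln1, the lysosomal calcium channel, was at 44.5 and 45.8 CPM in the male and female controls and 84.2 and 66.5 CPM after CS (edgeR adjusted p = 1.0). Lipa, the acid lipase that frees cholesterol from esters, was at 326 and 389 CPM in the male and female controls and 527 and 544 CPM after CS (edgeR adjusted p = 1.0). In these genes the groups did not overlap. The protease Ctsd, named by the study, was at 4748 and 8349.7 CPM in the male and female controls and 9304 and 11155 CPM after CS, and its relative Ctsk at 232 and 442 CPM in the male and female controls and 699 and 631 CPM after CS. Cd63, a tetraspanin of late endosomes, was at 56.8 and 197 CPM in the male and female controls and 208 and 334 CPM after CS, higher in the male pair by 3.63-fold and in the female pair by 1.70-fold. Ctsc and Ctsh were the 2 genes lower in both pairs, by at most 0.24 on the log2 scale.

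Of 24 tested AM markers 11 were higher and 3 lower in both pairs, beside 26.1% and 27.2% of all tested genes. The medians were 0.27 in the male and 0.05 in the female pair. The AM markers summed to 41306 and 88764 CPM in the male and female controls and 52959 and 85061 CPM after CS. Marco, a scavenger receptor for inhaled particles, was at 568 and 991 CPM in the male and female controls and 1402 and 1733 CPM after CS, without overlap (edgeR adjusted p = 1.0). Fabp1, a fatty acid binding protein, was lower, at 140.0 and 455 CPM in the male and female controls and 63.0 and 227 CPM after CS, and its groups overlapped. Among 18 genes of macrophage lipid handling, the uptake receptor Cd36 was higher by 0.80 and 0.68 and the cholesterol exporter Abca1 was lower by 1.65-fold and 1.56-fold, while Trem2, a lipid-sensing receptor, differed by 1.53 and 0.23 on the log2 scale. Since these are bulk libraries, more or fewer cells of a type and more or less RNA per cell cannot be told apart, here and in each group below. The part of AM in the lysosomal differences was not tested.

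MHC class II transcripts were lower after CS in both sexes. Of 10 tested genes 8 were lower in both pairs and none higher in both, 5 of them by 1.5-fold or more, beside 27.2% and 1.17% of all tested genes. The medians were -1.04 in the male and -0.80 in the female pair. H2-Ab1 (ENSMUSG00000073421.4, chromosome 17, 34400154 to 34406363), the beta chain of the I-A molecule, was at 1044 and 1592 CPM in the male and female controls and 395 and 606 CPM after CS. It was lower by 2.64-fold in the male and 2.63-fold in the female pair (edgeR log2 fold-change -1.40 ± 0.37 SE, adjusted p = 1.0, DESeq2 adjusted p = 0.065). Its alpha chain H2-Aa was at 1386 and 2769 CPM in the male and female controls and 640.4 and 1053 CPM after CS, and the I-E beta chain H2-Eb1 at 789.8 and 1436 CPM in the male and female controls and 364 and 556 CPM after CS. Cd74, the invariant chain that guides class II molecules to endosomes, was at 2739 and 4389.9 CPM in the male and female controls and 1267 and 1981 CPM after CS (edgeR adjusted p = 1.0). In all 4 genes both CS libraries lay below both controls.

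The peptide loading chain H2-DMb1 was at 106 and 178 CPM in the male and female controls and 53.5 and 96.0 CPM after CS, and its partner H2-DMa differed by -0.76 and -0.50 on the log2 scale. The loading inhibitors H2-Oa and H2-Ob, which are used mainly by B cells, were slightly higher in the male and lower in the female pair (0.25 and -0.71 and 0.17 and -0.52). Ciita, the class II transactivator, was at 123 and 39.6 CPM in the male and female controls and 42.5 and 32.6 CPM after CS, lower mostly in the male pair. None of the 10 genes was called by edgeR or DESeq2, and 5 had an unadjusted edgeR p under 0.05, beside 2.41% of all tested genes. With CDS length removed, 8 of 10 stayed lower in both pairs and the medians were -1.19 and -0.72.

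In the matched α7G pairs the class II medians were -0.04 and 0.33. The difference between the responses of the lines (interaction term of edgeR) was -1.52 ± 0.52 SE on the log2 scale for H2-Ab1 (adjusted p = 0.99), -1.39 for H2-Eb1 (adjusted p = 0.99) and -1.31 for Cd74 (adjusted p = 0.99). Of the 10 genes 3 had an unadjusted interaction p under 0.05, beside 1.68% of all tested genes, and none an adjusted one, so a difference between the lines was not shown for these genes.

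Beside these values stand the markers of cells that use class II. Dendritic cell markers summed to 300.4 and 362 CPM in the male and female controls and 204 and 195 CPM after CS, and B cell markers to 981 and 1379 CPM in the male and female controls and 1211 and 1199 CPM after CS. ATII markers summed to 7006 and 15819 CPM in the male and female controls and 5069.8 and 17441 CPM after CS. Of 3 tested dendritic cell markers, Flt3, the receptor of the growth factor of this lineage, was at 36.2 and 27.2 CPM in the male and female controls and 16.7 and 11.4 CPM after CS (edgeR adjusted p = 1.0) and Itgae was lower as above, while Ccr7 differed by 0.06 and -0.48. Of 10 B cell markers, 2 were higher and 1 was lower in both pairs. No dendritic cell or B cell marker was at 0 in all 4 libraries. The part of each cell type in the class II difference was not tested.

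MHC class II promoters carry a Y box, a site of the factor NF-Y next to the X box through which CIITA is recruited. The letters CTGATTGG were found on either strand in 3 of the 7 tested class II genes in the promoter table (H2-Aa, H2-Eb1 and H2-Oa) and in 4.1% of all promoters. The 2 that were lower in both pairs are shown with the match in capitals, from RefSeq (GRCm38.p6), H2-Aa at chr17:34287774-34288073 on the minus strand and H2-Eb1 at chr17:34305617-34305916 on the plus strand.
H2-Aa: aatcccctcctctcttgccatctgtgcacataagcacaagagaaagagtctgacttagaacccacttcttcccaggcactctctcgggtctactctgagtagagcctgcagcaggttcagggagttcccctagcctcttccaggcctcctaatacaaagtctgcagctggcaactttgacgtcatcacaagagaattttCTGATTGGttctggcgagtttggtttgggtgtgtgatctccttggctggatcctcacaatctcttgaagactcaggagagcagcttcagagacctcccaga
H2-Eb1: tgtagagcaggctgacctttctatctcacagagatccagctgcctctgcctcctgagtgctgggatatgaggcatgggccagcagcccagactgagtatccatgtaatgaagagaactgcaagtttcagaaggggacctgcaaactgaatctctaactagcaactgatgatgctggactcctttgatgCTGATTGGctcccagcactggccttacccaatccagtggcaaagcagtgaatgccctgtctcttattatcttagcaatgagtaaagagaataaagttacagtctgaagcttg

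Interferon-stimulated transcripts were lower in both pairs for 20 of 21 tested genes, with medians of -0.40 in the male and -0.31 in the female pair, beside 27.2% of all tested genes lower in both. The differences were small, and only Isg15, a ubiquitin-like modifier, reached 1.5-fold in both pairs, at 18.8 and 46.5 CPM in the male and female controls and 12.1 and 29.9 CPM after CS, with overlapping groups. Gbp3, a GTPase against intracellular pathogens, was at 42.1 and 45.5 CPM in the male and female controls and 31.7 and 28.8 CPM after CS (edgeR adjusted p = 1.0), and Igtp, an immunity-related GTPase, at 56.5 and 70.9 CPM in the male and female controls and 40.5 and 47.4 CPM after CS (edgeR adjusted p = 1.0). In both genes the groups did not overlap. Irf7 and Irf9, regulators of the response, differed by -0.86 and -0.19 and by -0.55 and -0.31. Ifi35 was the exception, with 0.44 and 0.02. Both CS libraries were below both controls for 10 of 21 genes, beside 7.02% of all tested genes. None was called, and with CDS length removed 19 of 21 stayed lower in both pairs.

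The interferon-stimulated response element was searched as GAAA, any 2 bases and GAAA again, on both strands. It was found in 9 of 16 tested list genes in the promoter table and in 3.44% of all promoters, again counted by gene and by promoter. A promoter of Gbp3 that holds 2 matches lies at chr3:142559794-142560093 on the plus strand of GRCm38.p6 and is shown with the matches in capitals. Another promoter of Gbp3 held no match.
Gbp3: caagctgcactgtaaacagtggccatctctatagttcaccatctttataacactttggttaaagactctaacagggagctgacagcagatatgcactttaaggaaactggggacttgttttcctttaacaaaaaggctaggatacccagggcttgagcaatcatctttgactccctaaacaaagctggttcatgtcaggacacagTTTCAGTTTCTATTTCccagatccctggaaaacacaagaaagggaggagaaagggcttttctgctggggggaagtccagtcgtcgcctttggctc

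**Figure D4:**
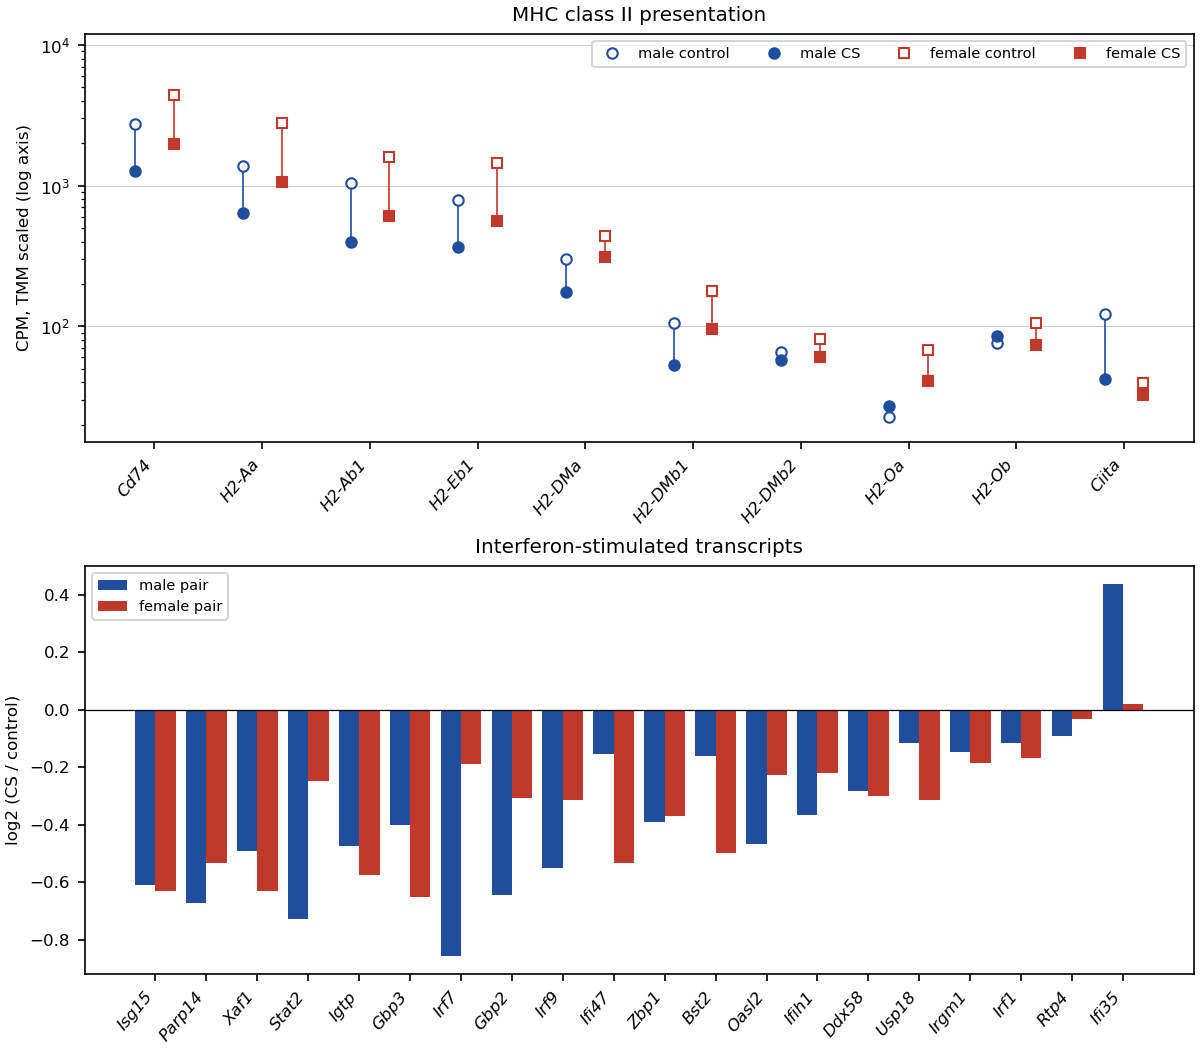
Upper panel, CPM (log axis) of 10 MHC class II presentation transcripts in the 4 α7E260A:G libraries, with open symbols for control, filled for CS, circles for male and squares for female. Lower panel, bars of the pair difference (log2 of CS over control) in each sex for 20 of the 21 interferon-stimulated transcripts, of which 19 lie below 0 in both sexes and Ifi35 lies above.

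Transcripts of cytotoxic and T cells were lower more often than higher. Of 13 tested NK and cytotoxic markers 10 were lower in both pairs and none higher in both, with medians of -0.35 in the male and -0.80 in the female pair. Of 11 T cell markers 6 were lower and 1 higher. Over all tested genes 27.2% were lower and 26.1% higher in both pairs. Perforin, Prf1, was at 105 and 119.7 CPM in the male and female controls and 62.2 and 59.3 CPM after CS (edgeR adjusted p = 1.0), and the lineage factor Tbx21 at 28.2 and 26.0 CPM in the male and female controls and 16.5 and 17.5 CPM after CS. Granzyme A, Gzma, went from 341 to 258 CPM in the male pair and from 1278 to 551 CPM in the female pair, and the chemokine Ccl5 of the same cells from 131 to 102 CPM in the male pair and from 509 to 208 CPM in the female pair, with the female control highest in both genes. Cd4 was at 56.3 and 66.3 CPM in the male and female controls and 37.3 and 35.2 CPM after CS (edgeR adjusted p = 1.0), while Cd3e, a chain of the T cell receptor complex, had pair differences of -0.02 and -0.33. MHC class I presentation genes were lower in both pairs for 6 of 14 and higher for none, beside the same 27.2% and 26.1%. With CDS length removed 12 of 14 were lower, beside 2036 of all 7378 tested genes. Of the class I genes, the peptide transporter Tap1 was at 166 and 153 CPM in the male and female controls and 114 and 99.9 CPM after CS.

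Among 15 tested genes of the chemokine and receptor list, which does not hold Cxcr1, 7 were lower and 1 was higher in both pairs. Over all tested genes these shares were 27.2% and 26.1%. Cxcl16, a transmembrane chemokine of macrophages and dendritic cells, was at 32.6 and 51.6 CPM in the male and female controls and 14.0 and 21.8 CPM after CS (edgeR adjusted p = 1.0). Its receptor Cxcr6 was at 43.0 and 102 CPM in the male and female controls and 41.5 and 82.5 CPM after CS, with overlap. Cxcr3, the receptor of interferon-induced chemokines, was at 24.3 and 35.9 CPM in the male and female controls and 15.6 and 20.5 CPM after CS, and Ccl9 went from 133 to 107 CPM in the male pair and from 313 to 116 CPM in the female pair. Ccl17, a dendritic cell chemokine that did not reach the count filter, was at 27.9 and 71.0 CPM in the male and female controls and 3.78 and 15.2 CPM after CS. Ccl3 was the 1 list gene higher in both pairs (1.23 and 0.36), and Cxcr1, outside the list, was higher as given above. The complement subunits C1qa, C1qb and C1qc, made by interstitial macrophages, were lower together. C1qa was at 50.7 and 74.5 CPM in the male and female controls and 13.3 and 28.6 CPM after CS, and C1qc at 47.7 and 65.1 CPM in the male and female controls and 11.7 and 21.8 CPM after CS, with no overlap. None had an unadjusted edgeR p under 0.05, and C1qc had an edgeR adjusted p of 1.0.

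Immunoglobulin transcripts made up 21 of 86 genes lower by 1.5-fold in both pairs and 18 of 31 DESeq2 calls. Of 98 tested, 37 were lower and 2 higher in both pairs, beside 27.2% and 26.1% of all tested genes. Ighv8-12, a heavy chain variable segment, was at 145 and 114 CPM in the male and female controls and 8.59 and 9.72 CPM after CS, and Igkv6-25, a light chain segment, at 126 and 428 CPM in the male and female controls and 11.3 and 12.8 CPM after CS. For both, the 2 CS libraries were far below both controls (DESeq2 adjusted p = 1.5e-12 for both). The constant region Ighg2c was lower by 8.70-fold in the male and 33.5-fold in the female pair, and Ighm went from 1695 to 1046 CPM in the male pair and from 8323 to 1465 CPM in the female pair. The female control was high in most of these genes. In all, 96 of 98 were lower in the female pair, against 37 in the male pair, where 61 were higher. The count filter averages all 8 libraries, so a gene can pass it through the high female control, or through both controls of α7E260A:G. Its direction in the female pair, or in both pairs, is then fixed in advance. Ighv1-67, which DESeq2 called, had counts of 138 and 1430 in the male and female controls and 57 and 47 after CS. In the α7G controls it was at 1.76 and 1.23 CPM. In the α7G libraries Ighv8-12 was at 15.5 to 38.3 CPM and Igkv6-25 at 16.8 to 23.2 CPM, far below both α7E260A:G controls. The female count, the direction and the DESeq2 calls of such genes, Ighv8-12 and Igkv6-25 among them, are therefore no independent support. With CDS length removed 59 of 98 were lower in both pairs, and the male median went from 0.16 to -0.19. Igj, the J chain of plasma cells, was at 296 and 6426 CPM in the male and female controls and 367 and 417 CPM after CS. Segments that share sequence cannot be told apart with certainty, and without the male control edgeR called 81 genes, 73 of them immunoglobulins.

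Secretory cells of the airway showed a mixed pattern. Of 14 club cell markers 7 were higher and 2 lower in both pairs, beside 26.1% and 27.2% of all tested genes. Lists can share members, so their counts are not separate results. Cyp2a5 is counted both here and among the cytochrome P450 and aldehyde genes. Bpifa1, a surfactant-like defense protein, was at 627 and 1530.3 CPM in the male and female controls and 1739 and 3117 CPM after CS, higher by 2.77-fold in the male and 2.04-fold in the female pair (edgeR adjusted p = 1.0). Scgb1a1, the main secretoglobin of club cells, was at 19752 and 49649 CPM in the male and female controls and 9602 and 36303 CPM after CS, while Scgb3a2 was at 941 and 2745 CPM in the male and female controls and 1407 and 3314 CPM after CS. Both are short transcripts, and with CDS length removed the pair differences were -1.47 and -0.08 for Scgb1a1. Pigr, which carries IgA across epithelium, was at 119.5 and 84.1 CPM in the male and female controls and 60.4 and 55.7 CPM after CS (edgeR adjusted p = 1.0), and Muc5b, the gel-forming airway mucin, went from 228 to 45.4 CPM in the male pair and from 41.4 to 55.1 CPM in the female pair. Reg3g, an antibacterial lectin, was at 57.6 and 207 CPM in the male and female controls and 116 and 348 CPM after CS. No basal cell marker reached the count filter. Krt15, a keratin of that list, was at 3.96 and 2.49 CPM in the male and female controls and 16.5 and 47.8 CPM after CS, and Krt5, which defines basal cells, at 1.70 and 0.216 CPM in the male and female controls and 1.37 and 8.77 CPM after CS.

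Genes of the circadian clock lay in both directions, 5 higher and 3 lower in both pairs of 11 tested. Over all tested genes 26.1% were higher and 27.2% lower. Arntl (BMAL1), the activator of the clock, was at 32.1 and 32.7 CPM in the male and female controls and 18.6 and 18.8 CPM after CS, and Nfil3, a repressor, at 68.9 and 66.6 CPM in the male and female controls and 38.9 and 38.9 CPM after CS. In both the male and female libraries of a group lay close together (edgeR adjusted p = 1.0 for Arntl and 1.0 for Nfil3). Nr1d2, a nuclear receptor that represses Arntl, had pair differences of 0.63 and 1.09, while its relative Nr1d1 went from 80.3 to 59.7 CPM in the male pair and from 13.6 to 53.9 CPM in the female pair.

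Of 11 fibroblast markers 6 were higher and 2 lower in both pairs, beside 26.1% and 27.2% of all tested genes. The small proteoglycans decorin (Dcn) and lumican (Lum), which organize collagen fibrils, were higher by 1.68-fold in the male and 2.24-fold in the female pair for Dcn and were at 12.7 and 18.5 CPM in the male and female controls and 25.8 and 50.4 CPM after CS for Lum, without overlap (edgeR adjusted p = 1.0 for Dcn and 1.0 for Lum). Fn1, fibronectin, was lower, from 1427 to 324 CPM in the male pair and from 411 to 197 CPM in the female pair, and Eln, elastin, was at 60.4 and 21.7 CPM in the male and female controls and 20.7 and 17.1 CPM after CS (edgeR adjusted p = 1.0). The fibrillar collagen Col3a1 went from 640.1 to 593 CPM in the male pair and from 155 to 406 CPM in the female pair, and the collagen medians were -0.19 in the male and 1.06 in the female pair. Of 10 collagens 3 were higher and 1 lower in both pairs. With CDS length removed 6 were higher and 1 lower, and the medians were 0.15 and 1.08, so the direction of the male median depends on length.

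In lists of short transcripts the pairs pointed in opposite directions. The 33 tested subunits of complex I had medians of 0.38 in the male and -0.32 in the female pair, and the 50 cytosolic ribosomal proteins 0.39 in the male and -0.55 in the female pair. With CDS length removed the complex I medians were 0.08 and -0.06, while the ribosomal medians stayed opposed at 0.12 and -0.34. Globin and heme transcripts of red cell precursors also disagreed, with Hba-a1 at 203 and 126 CPM in the male and female controls and 1505 and 31.8 CPM after CS.

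The difference between the CS responses of the lines was tested over all genes. The interaction of edgeR called none, with 124 genes at an unadjusted p under 0.05, and DESeq2 called 6 (0.0813%). Inmt, a methyltransferase of lung fibroblasts, was at 665 and 428 CPM in the male and female controls and 499 and 623 CPM after CS in α7E260A:G. In α7G it went from 220.4 to 884 CPM in the male pair and from 239.9 to 955 CPM in the female pair (DESeq2 log2 of the difference -1.99, adjusted p = 0.0079). Hsd11b1, which activates glucocorticoids, had pair differences of -0.48 and -0.33 in α7E260A:G and of 1.30 and 0.91 in α7G (adjusted p = 0.0018). Gpihbp1, the lipoprotein lipase anchor of capillaries, had -0.20 and -0.29 and 1.51 and 1.14 (adjusted p = 0.01). The values of Inmt, Hsd11b1 and Gpihbp1 are given without CDS length removed. The α7G pair differences depend on it more steeply than those of α7E260A:G, by -0.45 (male) and -0.26 (female) per doubling. The other 3 were the immunoglobulin segments Ighv8-12, Igkv4-59 and Igkv6-25. Both α7E260A:G controls were above all other libraries in these segments, so they can have passed the count filter through those controls. The sign of their interaction is then fixed in advance, and these calls are no independent support. For the NRF2 list the α7G medians were 0.74 and 0.30, and none of its 28 genes had an unadjusted interaction p under 0.05.

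**Figure D5:**
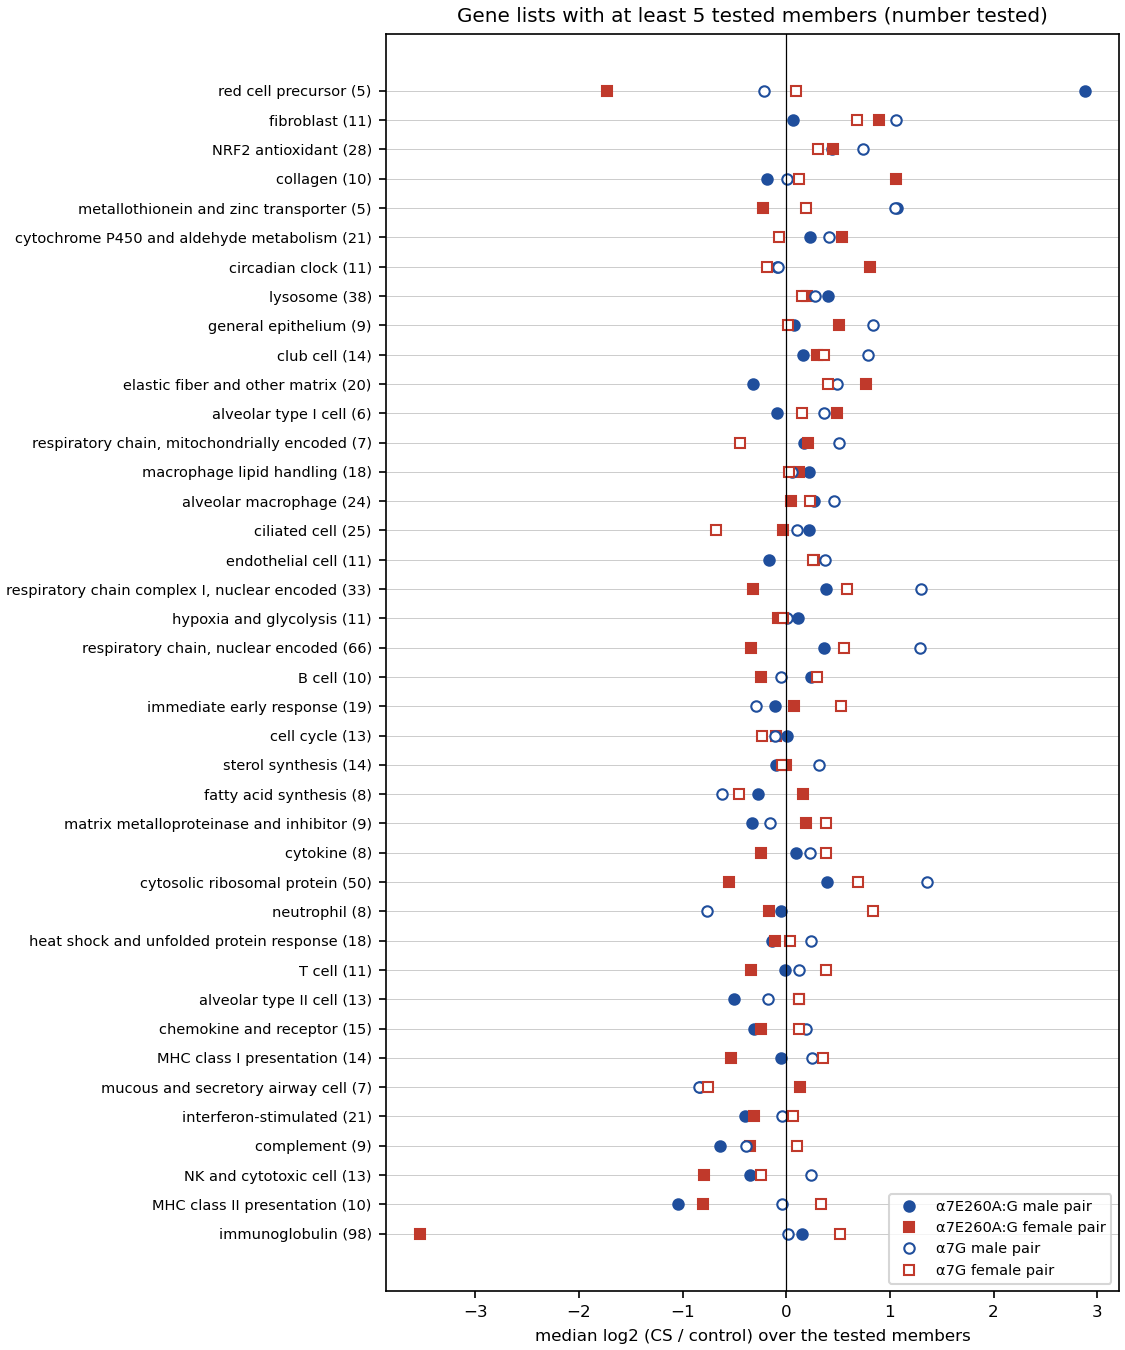
Median pair difference (log2 of CS over control) over the tested members of each gene list (number in parentheses), in the male (circles) and female pairs (squares) of α7E260A:G (filled) and α7G (open). The filled symbols of MHC class II presentation lie at -1.04 and -0.80, and those of red cell precursors lie on opposite sides of 0.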

How the data were processed

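RNA-Seq counts of cells from the distal lung were analysed for 8 libraries (HTSeq counts after STAR alignment to mm9, NCBIM37, according to the submitters' processing notes and the methods of the study). The authors prepared stranded mRNA libraries, counted reads on coding sequences with GENCODE M1 and deposited the raw counts of 22756 genes per library, without normalization or filter. Tool versions are not given in the sources used here. All genes were found in GENCODE M1, from which coordinates, CDS lengths and gene types were taken.

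Tests covered the 7378 genes that averaged 200 counts or more over the 8 libraries, as in the study but without its exclusions by name. edgeR 4.0.16 (glmQLFit and glmQLFTest, TMM, Benjamini-Hochberg at 0.05, R 4.3.3, limma 3.58.1) was fitted to all 4 groups, which share 1 estimate of the spread, without a block. The common dispersion was 0.0882. Adjusted p are over all tested genes. The fit was tested on counts simulated from the mean counts of the tested genes (7378 genes, 200 changed). The simulation had a dispersion of 0.05, below the fitted one, and no differences by sex or CDS length. Its recovery is therefore not the power in the real counts. edgeR recovered 99% of 4-fold and 44% of 2-fold changes with 3 false calls, and DESeq2 1.42.0 recovered 99% of 4-fold changes with 7 false calls. Pair differences used CPM plus 0.5 and matched libraries by the sex in the labels. Removing CDS length used a lowess fit (span 0.667) per library. Alternatives were other scalings, filters, tools, a replicate block and leaving out libraries. Figures were drawn with matplotlib 3.10.9, numpy 2.4.6 and pandas 2.3.3 in Python 3.11.15.

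The gene lists, members and tests were chosen with earlier results of these data known, and the immunoglobulin list was added after these files were examined. Named genes were list members, the 12 higher and 12 lower with the largest smaller pair difference, up to 20 calls, Chrna7 and genes the study names. As a check of sex labels, Ddx3y, a Y-linked gene, had counts of 729 and 880 in the male and 0 in the female libraries of the line. Values of some single list genes are not reported here. Proteins, histology and reads were not analysed here.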

Additional observations from a re-analysis of the deposited data

Results flagged for a closer look

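Some results differed between the lines or the sexes. The difference between the CS responses of α7E260A:G and α7G, as estimated by DESeq2 on the log2 scale, was -1.99 for Inmt, -1.54 for Hsd11b1, -1.62 for Gpihbp1, -3.47 for Ighv8-12, -4.16 for Igkv4-59 and -4.81 for Igkv6-25, all with a DESeq2 adjusted p under 0.05 and none with an edgeR adjusted p under 0.05. The immunoglobulin segments can have passed the count filter through the α7E260A:G controls, so their calls are no independent support. Of the other genes Gpihbp1 is an endothelial and Inmt a fibroblast transcript. The endothelial markers summed to 997 and 515 CPM in the male and female controls and 899 and 596 CPM after CS and the fibroblast markers to 5045 and 3154 CPM in the male and female controls and 5294 and 5179.8 CPM after CS in α7E260A:G, and their part was not tested.

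Chemokine and receptor transcripts had negative medians in both α7E260A:G pairs (-0.31 and -0.24) and positive medians in both α7G pairs (0.19 and 0.12), a difference of the means of -0.44 that was not tested. With CDS length removed the α7E260A:G medians were -0.67 and -0.19. The α7G medians were not corrected for length, on which the α7G pair differences depend by -0.45 (male) and -0.26 (female) per doubling.

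In α7E260A:G the male and female medians had opposite signs in 21 of 40 lists with at least 5 tested genes, and in 5 of these both medians were at least 0.3 from 0, which was not tested. For these 5 the values follow. The male median minus the female median was 4.62 for red cell precursors, -1.09 for elastic fiber and other matrix, 0.70 for the nuclear encoded respiratory chain, 0.70 for its complex I subunits and 0.94 for cytosolic ribosomal proteins.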

How the results depend on the processing

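The count of genes called by edgeR between CS and control was 0 with TMM, library size or DESeq2 size factor scaling, with the study's name exclusions, with the replicate block and in the α7E260A:G libraries alone with or without the block. It was 31 with DESeq2, 1 with filterByExpr, 3 among 17542 genes with any count, 1 with a CDS length offset and 1 with the replicate block and that offset. Leaving out 1 library gave 0 to 81 calls, with 81 without the male control (73 immunoglobulins) and 1 without the female control. The interaction count was 0 except for 6 with DESeq2 and 58 without the male control, so that leaving out 1 library gave 0 to 58. Genes higher by 1.5-fold in both pairs numbered 65, against 96 with library size scaling, 57 with a pseudocount of 5, 13 at 2-fold and 313 with filterByExpr, and genes lower numbered 86, against 65, 59, 31 and 354. A single pair alone, which is what leaving out a library leaves, gave 382 to 389 higher and 393 to 569 lower. Library size scaling moved the median of all genes from -0.0092 to 0.134 in the female pair and from 0.0029 to 0.017 in the male pair. The replicate block changed the sign of Arnt (0.022 on the log2 scale, 0.078 with the CDS length offset) and, with that offset, of Inmt (-0.081), and the cause was not tested. Libraries of 1 sex deviated from the group averages with correlations of 0.053 to 0.76 over the 6 pairs of groups, 5 of them above 0.1, with 0.76 between control and CS of α7E260A:G (0.51 with CDS length removed). The labels give sex as what such libraries share, and the replicate block gave 248 genes with an unadjusted edgeR p under 0.05 against 178 without it. In the α7E260A:G libraries alone these numbers were 490 with the block and 70 without it. With 2 libraries a group, edgeR recovered only 44% of 2-fold changes in the simulated counts, whose dispersion was below the fitted one. The power in the real counts was not measured.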
